A study of Homo sapiens with 4 samples.

Results

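The comparison described here sets THP-1 cells given a mimic of the microRNA miR-27b-3p against THP-1 cells given a negative control mimic. It was chosen by sample title and rests on 2 of the 4 arrays of the series, 1 array with each mimic. Differences were taken over 17687 genes, read by the 17709 of 21448 probe sets that name a single gene. THP-1 is an established human monocytic leukaemia line, and all cultures had been exposed to PMA, a phorbol ester, at 100 ng/ml for 2 days, which turns the cells into adherent macrophage-like cells. Each culture was then transfected for 24 h, by Lipofectamine RNAiMAX, with the miR-27b-3p mimic, a let-7d-5p mimic, a miR-151a-5p mimic or the negative control mimic, and total RNA was hybridised to Clariom S arrays. The array titled let-7d-5p is called let-7a-5p in the description of the design, and it is named here by its title. The study asked what microRNAs that were raised in plasma of people with atopic disease do in a monocytic cell. Untransfected cells were not analysed here.

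MicroRNAs are short RNAs that guide Argonaute proteins to messenger RNAs, mostly by pairing of the seed, bases 2 to 8 counted from the 5′ end of the microRNA, with sites in the 3′ untranslated region, and the paired messenger is then destabilised or translated less. The miR-27 family, made of miR-27a and miR-27b, is known for its part in adipocyte and lipid metabolism, vessel growth and macrophage inflammation. A transfected mimic is a synthetic double-stranded RNA, and foreign double-stranded RNA is also a ligand of innate RNA sensors in macrophages. The negative control was itself a mimic transfected in the same way, so both sides of the comparison received one. The miR-151a-5p sequence is not shown. Mature sequences of the miR-27 family, and of let-7 under both names of that array, are given from RefSeq (GRCh38.p14) with the seed in capitals. The miR-27 members share the seed, and the let-7 mimic has a different one:
hsa-miR-27b-3p: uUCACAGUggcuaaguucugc
hsa-miR-27a-3p: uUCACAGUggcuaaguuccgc
hsa-let-7d-5p: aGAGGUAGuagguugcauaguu
hsa-let-7a-5p: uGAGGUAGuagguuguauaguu
The miR-27b-3p strand lies at chr9:95085505-95085525 on the plus strand, within the span of AOPEP, an aminopeptidase gene. miR-27a-3p, from chromosome 19, is identical at 20 of 21 bases and differs by U19C, counted from the 5′ end of miR-27b-3p. let-7d-5p and let-7a-5p have the same seed, so the seed of that array's mimic is the same under either name.

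All values are log2 signals, and a difference is the log2 signal on the miR-27b-3p array minus that on the control array, so that 1 stands for a doubling. A gene was called above the floor where the mean of its signals on these arrays exceeded 5.34, the level under which 95% of the signals of 348 olfactory receptor genes lay, since those genes are not normally transcribed in blood cells. By that rule 11627 genes were above the floor. With 1 array for each mimic there is no measure of the spread between cultures, so sizes are given and no difference was tested. The standard deviation of the differences over genes was 0.22 in the fifth of above-floor genes with the highest signal, 0.39 in the fifth with the lowest, and 0.41 over the olfactory receptor genes. Of the monocyte and macrophage markers 13 of 14 were above the floor on both arrays, CD14 at 11.07 with miR-27b-3p and 11.30 with the control mimic, as were 3 of 8 T and NK cell markers, 1 of 5 epithelial markers and 3 of 4 B and plasma cell markers. Of 6 fibroblast and endothelial markers 5 were above it with miR-27b-3p and 4 with the control mimic, so the marker counts did not set macrophages apart from every other cell type. By signal the sets differed. With miR-27b-3p the median was 13.46 for monocyte and macrophage markers and 7.115 for B and plasma cell markers. For fibroblast and endothelial markers it was 6.375, with the highest at 14.09, for T and NK cell markers 4.69 and for epithelial markers 3.53. A longer list of 36 macrophage markers had a median difference of -0.03, and 0 of them were 1.5-fold apart between the arrays.

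The largest differences were few. At least 3-fold, the size that the study used, separated 7 genes higher with miR-27b-3p (0.0396% of all genes) and 3 genes lower (0.017%). At least 2-fold separated 107 genes higher (0.605%) and 89 lower (0.503%), and 46 of the higher genes (0.396% of genes above the floor) and 50 of the lower ones (0.43%) were above the floor. Above the floor, 6 genes were at least 3-fold higher (0.0516%) and 1 was lower (0.0086%). Among the olfactory receptor genes 4 were 2-fold higher (1.15%) and 4 were 2-fold lower (1.15%), so a 2-fold difference at low signal occurred in both directions in genes not expected to be transcribed. At 1.5-fold the share was 5.07% of all genes higher and 4.7% lower, and 3.21% higher and 4.55% lower among genes above the floor.

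**Figure D1:**
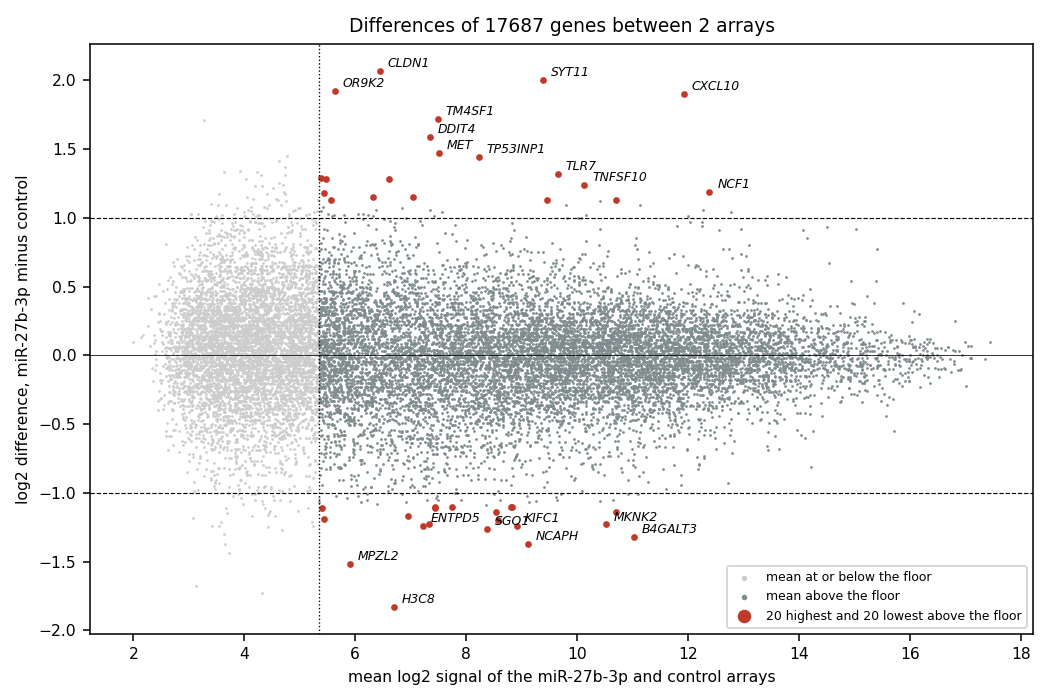
Log2 difference between the miR-27b-3p and control arrays (vertical axis) against the mean log2 signal of both (horizontal axis), 1 point for each of 17687 genes. The dotted line marks the floor of 5.34, the dashed lines mark 2-fold, and red points are the 20 highest and 20 lowest genes above the floor, from 2.07 for CLDN1 to -1.83 for H3C8.

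CLDN1, the tight junction protein claudin-1, led the higher genes. Its log2 signal was 7.48 with miR-27b-3p, 6.14 with let-7d-5p, 6.64 with miR-151a-5p and 5.41 with the control mimic, a difference of 2.07 from the control. SYT11, a synaptotagmin of vesicle traffic, was at 10.38 with miR-27b-3p, 9.26 with let-7d-5p, 8.80 with miR-151a-5p and 8.38 with the control mimic, a difference of 2.0. Both genes were highest on the miR-27b-3p array and lowest on the control array, with the other mimics between. CXCL10, an interferon-induced chemokine that draws T cells, was at 12.88 with miR-27b-3p, 12.89 with let-7d-5p, 12.35 with miR-151a-5p and 10.98 with the control mimic. Its difference of 1.90 was therefore matched on the let-7d-5p array. TM4SF1, an L6 family membrane protein, was at 8.35 with miR-27b-3p and 8.02 with let-7d-5p, against 6.27 with miR-151a-5p and 6.63 with the control mimic. DDIT4, also called REDD1, a stress-induced inhibitor of mTORC1, was at 8.14 with miR-27b-3p, 7.14 with let-7d-5p, 7.51 with miR-151a-5p and 6.55 with the control mimic. OR9K2, an olfactory receptor gene, reached 6.59 with miR-27b-3p and was under the floor on the control array, at 4.67. The remaining gene of the 7, INSL6, was under the floor on both arrays, at 4.13 with miR-27b-3p and 2.42 with the control mimic.

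Below these came MET, the receptor of hepatocyte growth factor, at 8.24 with miR-27b-3p, 8.59 with let-7d-5p, 7.93 with miR-151a-5p and 6.77 with the control mimic. Its difference from the control was 1.47, whereas relative to the average of both other mimics it was -0.02. TP53INP1, a p53-induced regulator of autophagy and cell death, was at 8.95 with miR-27b-3p, 7.97 with let-7d-5p, 7.53 with miR-151a-5p and 7.51 with the control mimic. TNFSF10, the death ligand TRAIL, was at 10.75 with miR-27b-3p, 10.29 with let-7d-5p, 10.22 with miR-151a-5p and 9.51 with the control mimic. PTPMT1, a mitochondrial phosphatase of cardiolipin synthesis, was at 11.26 with miR-27b-3p, 11.36 with let-7d-5p, 11.37 with miR-151a-5p and 10.13 with the control mimic. For MET, TNFSF10 and PTPMT1 the control array was thus the one that stood apart, whereas for TP53INP1 it was the miR-27b-3p array. The others among the 20 highest above the floor were TLR7, TLR8, NCF1 and IFIT2, described with their groups, and TTLL2, EVI5L, VWA1, LMOD3, CSMD3 and PRUNE2, with differences between 1.13 and 1.29. TTLL2, VWA1, LMOD3 and PRUNE2 were under the floor on the control array.

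**Figure D2:**
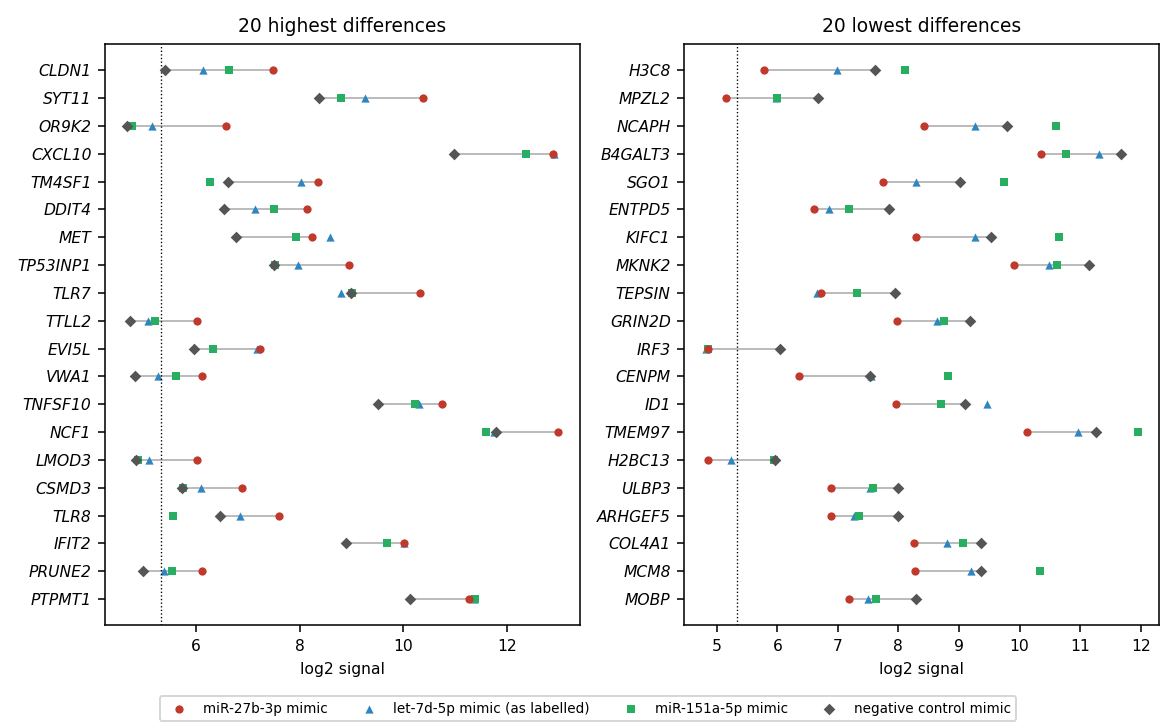
Log2 signal (horizontal axis) on the 4 arrays for the 20 genes above the floor with the highest and the 20 with the lowest difference between the miR-27b-3p and control arrays. Grey lines join these 2 arrays, and the dotted line is the floor of 5.34; CXCL10 and MET are as high with let-7d-5p as with miR-27b-3p, while NCAPH and KIFC1 are lowest with miR-27b-3p and highest with miR-151a-5p.

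The lowest difference above the floor was that of H3C8, a histone H3 gene, at 5.78 with miR-27b-3p, 6.98 with let-7d-5p, 8.11 with miR-151a-5p and 7.61 with the control mimic. Histone genes are near-identical in their coding parts, so a probe set of this family may read more than 1 of them. MPZL2, an adhesion molecule of epithelia and lymphocytes, was at 5.15 with miR-27b-3p, 5.97 with let-7d-5p, 6.0 with miR-151a-5p and 6.67 with the control mimic. It was under the floor with miR-27b-3p. B4GALT3, a galactosyltransferase of the Golgi, was at 10.36 with miR-27b-3p, 11.31 with let-7d-5p, 10.77 with miR-151a-5p and 11.68 with the control mimic. ENTPD5, a nucleotide phosphatase of glycoprotein folding in the endoplasmic reticulum, was at 6.60 with miR-27b-3p, 6.86 with let-7d-5p, 7.19 with miR-151a-5p and 7.84 with the control mimic. These 3 genes were lower with every mimic than with the control, and lowest with miR-27b-3p. MKNK2, a kinase of the translation factor eIF4E, was at 9.91 with miR-27b-3p, 10.48 with let-7d-5p, 10.62 with miR-151a-5p and 11.14 with the control mimic. ID1, an inhibitor of helix-loop-helix transcription factors, was at 7.96 with miR-27b-3p, 9.47 with let-7d-5p, 8.70 with miR-151a-5p and 9.10 with the control mimic. IRF3, the factor that drives the first interferon genes, had a difference of -1.19, but it crossed the floor only on the control array, at 6.04, and stood at 4.85 with miR-27b-3p, 4.82 with let-7d-5p and 4.85 with miR-151a-5p. The others among the 20 lowest were 6 cell cycle and histone genes, described with their groups, and TMEM97, TEPSIN, GRIN2D, ULBP3, ARHGEF5, COL4A1 and MOBP, with differences between -1.23 and -1.10. OR6C6 and ARHGAP20 were also 3-fold lower, both under the floor on each of these arrays, with ARHGAP20 at 3.46 with miR-27b-3p and 5.19 with the control mimic.

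Genes of cell division were lower with miR-27b-3p in nearly every functional group. Of 278 measured cell cycle genes 234 were lower (48.4% of all genes were), 83 were at least 1.5-fold lower (4.7% of all genes were) and 3 at least 1.5-fold higher (5.07% of all genes were), and the median difference was -0.37 beside 0.01 over all genes. The miR-27b-3p array was the lowest of the 4 for 189 of them, while it was the lowest of the 4 for 25.4% of all genes. In RNA from a whole culture, fewer dividing cells and less of these transcripts per cell cannot be told apart.

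Origin licensing and firing, the loading and activation of the MCM helicase at replication origins, had 25 of 26 genes lower and a median of -0.55. GINS1, a subunit of the active helicase, was at 8.59 with miR-27b-3p, 9.41 with let-7d-5p, 10.32 with miR-151a-5p and 9.61 with the control mimic. GMNN, geminin, the inhibitor of relicensing, was at 6.83 with miR-27b-3p and 7.73 with the control mimic, and CDC45, the helicase partner, was at 8.08 with miR-27b-3p and 8.91 with the control mimic. The subunits MCM2 to MCM7 lay within a narrow range, from -0.72 for MCM2 to -0.37 for MCM7, while MCM8, a related helicase of recombination, was at 8.27 with miR-27b-3p, 9.20 with let-7d-5p, 10.34 with miR-151a-5p and 9.37 with the control mimic. MCM4, the most strongly detected of these, was at 11.64 with miR-27b-3p, 12.33 with let-7d-5p, 13.08 with miR-151a-5p and 12.32 with the control mimic. At the fork itself 27 of 30 genes were lower, with a median of -0.48. POLE2, of the leading strand polymerase, was at 5.65 with miR-27b-3p and 6.62 with the control mimic. FEN1, which trims Okazaki fragments, was at 10.47 with miR-27b-3p and 11.38 with the control mimic, and CHAF1B, of the chromatin assembly factor, at 8.26 with miR-27b-3p and 9.17 with the control mimic. PCNA, the sliding clamp, differed by -0.30.

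The supply of deoxynucleotides was divided, with 7 of 12 genes lower (48.4% of all genes were) and a median of -0.21. TYMS, thymidylate synthase, was at 10.86 with miR-27b-3p and 11.53 with the control mimic, and RRM2, the S-phase subunit of ribonucleotide reductase, was at 9.96 with miR-27b-3p and 10.48 with the control mimic. In contrast TK2, the mitochondrial thymidine kinase, differed by 0.58 and RRM2B, the p53-induced reductase subunit, by 0.37. Of these 4, the pair that serves S phase was lower and the pair that serves mitochondria or repair was higher.

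The regulators of entry into S phase were divided as well, with 14 of 29 genes higher, 15 lower and a median of -0.02. E2F8, a repressor of the E2F family, was at 7.82 with miR-27b-3p, 8.17 with let-7d-5p, 9.94 with miR-151a-5p and 8.91 with the control mimic, and E2F1, an activator, was at 6.74 with miR-27b-3p, 7.64 with let-7d-5p, 8.58 with miR-151a-5p and 7.69 with the control mimic. CDC25A, the phosphatase that activates CDK2, differed by -0.80, CDK2 itself by -0.62 and CCNE1, cyclin E1, by -0.59. On the other side stood CCND3, cyclin D3, at 13.32 with miR-27b-3p, 13.31 with let-7d-5p, 13.52 with miR-151a-5p and 12.58 with the control mimic. CCND2, cyclin D2, was at 6.97 with miR-27b-3p, 6.69 with let-7d-5p, 6.83 with miR-151a-5p and 6.29 with the control mimic. For both cyclins the control array was the lowest. The CDK inhibitors CDKN1B (p27) and CDKN1A (p21) differed by 0.51 and 0.43, CDKN1A at 15.45 with miR-27b-3p, 15.10 with let-7d-5p, 15.09 with miR-151a-5p and 15.02 with the control mimic. Both inhibitors were highest on the miR-27b-3p array.

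Mitosis followed the same pattern as replication. Among mitotic kinases, cyclins and transcription factors 19 of 22 were lower, with a median of -0.29. FOXM1, a transcription factor of G2 and M phase genes, was at 6.38 with miR-27b-3p, 6.73 with let-7d-5p, 8.61 with miR-151a-5p and 7.45 with the control mimic. MYBL2, its partner on mitotic promoters, was at 9.12 with miR-27b-3p, 10.13 with let-7d-5p, 11.43 with miR-151a-5p and 10.17 with the control mimic. WEE1, the kinase that holds CDK1 inactive, was at 9.88 with miR-27b-3p, 11.14 with let-7d-5p, 11.89 with miR-151a-5p and 10.94 with the control mimic. For MYBL2 and WEE1 the miR-27b-3p array was at least 2-fold under each of the others. PLK1, polo-like kinase 1, differed by -0.89, while CCNB2, cyclin B2, differed by 0.41 and AURKA, Aurora kinase A, by -0.10.

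In the kinetochore and centromere list 24 of 25 genes were lower, with a median of -0.44. CENPM, a centromere protein, was at 6.36 with miR-27b-3p, 7.55 with let-7d-5p, 8.82 with miR-151a-5p and 7.53 with the control mimic, and SPC25, of the NDC80 complex that binds microtubules, was at 6.66 with miR-27b-3p and 7.47 with the control mimic. In the condensin and cohesion list 15 of 19 were lower and the median was -0.30. NCAPH, a condensin subunit, was at 8.43 with miR-27b-3p, 9.27 with let-7d-5p, 10.61 with miR-151a-5p and 9.80 with the control mimic. SGO1, shugoshin, which guards centromeric cohesion, was at 7.75 with miR-27b-3p and 9.01 with the control mimic. STAG2, a cohesin subunit used throughout the cycle, stood against the group. It was at 12.50 with miR-27b-3p, 12.42 with let-7d-5p, 11.83 with miR-151a-5p and 11.85 with the control mimic. Of the spindle motors and cytokinesis genes 25 of 27 were lower (48.4% of all genes were), and the median was -0.51. At least 1.5-fold lower were 12 of the 27 (4.7% of all genes were). KIFC1, a minus-end kinesin, was at 8.29 with miR-27b-3p, 9.26 with let-7d-5p, 10.65 with miR-151a-5p and 9.53 with the control mimic. The anaphase-promoting complex, whose core subunits are not confined to dividing cells, had a median of -0.14, with its activator CDC20 at -0.66 and its subunit CDC26 at 0.56. Relative to the same control array CDC26 differed by 0.57 with let-7d-5p and 0.53 with miR-151a-5p.

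**Figure D3:**
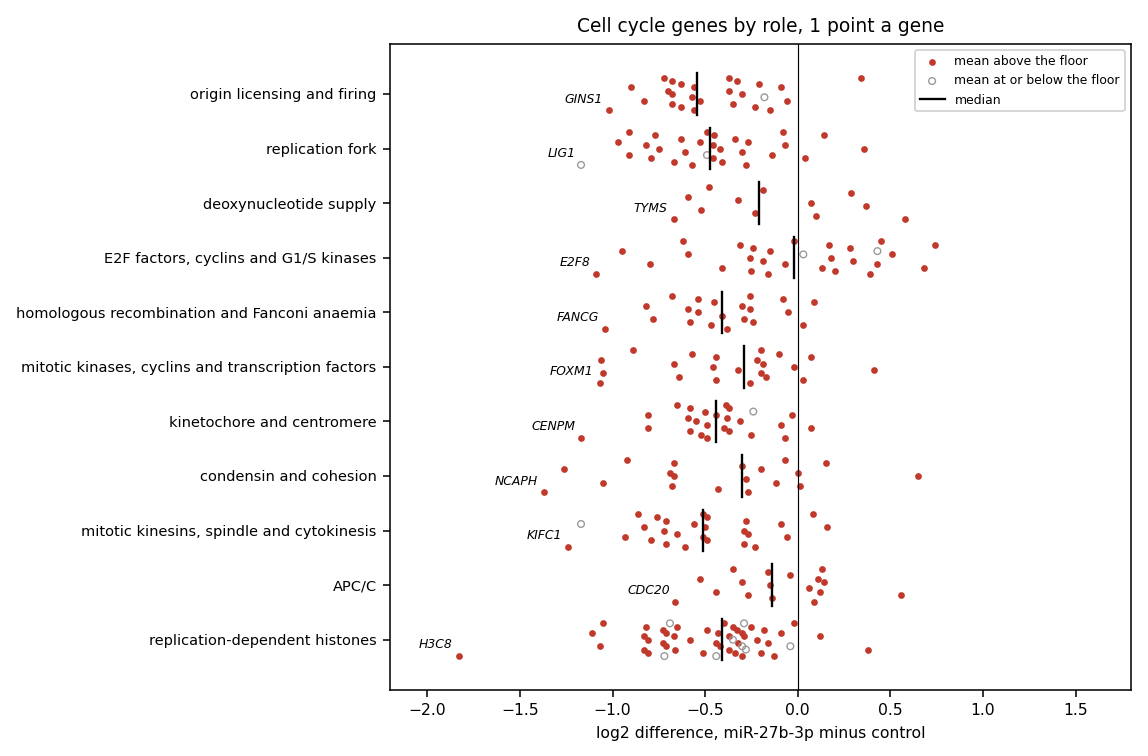
Log2 difference between the miR-27b-3p and control arrays (horizontal axis) for the measured genes of 11 cell cycle lists, 1 point a gene, with the median of each list as a bar and genes under the floor as open points. The medians lie between -0.55 and -0.02, and the regulators of S-phase entry spread to both sides of 0.

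Homologous recombination and Fanconi anaemia genes, which repair broken or crosslinked DNA in S phase, had 19 of 21 lower and a median of -0.41. FANCG led them, at 5.33 with miR-27b-3p, just under the floor, and 6.37 with the control mimic. The replication-dependent histone genes had 48 of 50 lower (48.4% of all genes were), with a median of -0.41. At least 1.5-fold lower were 18 of the 50 (4.7% of all genes were). H2BC13 was at 4.85 with miR-27b-3p, under the floor, and 5.96 with the control mimic. H3C11 was at 8.59 with miR-27b-3p, 9.32 with let-7d-5p, 10.46 with miR-151a-5p and 9.66 with the control mimic. The linker histone H1-5 was at 11.77 with miR-27b-3p, 12.16 with let-7d-5p, 13.26 with miR-151a-5p and 12.60 with the control mimic. On the other mimic arrays, which share the control array with this one, the median differences of these lists were of other sizes. The histone list stood at -0.41 with miR-27b-3p, -0.27 with let-7d-5p and 0.54 with miR-151a-5p, so it was lower with let-7d-5p as well. The origin licensing list stood at -0.55 with miR-27b-3p, -0.12 with let-7d-5p and 0.69 with miR-151a-5p, and the spindle list at -0.51 with miR-27b-3p, -0.15 with let-7d-5p and 0.82 with miR-151a-5p. Relative to the average of both other mimics the origin licensing median with miR-27b-3p was -0.82. The average joins unlike arrays, since the median was -0.28 relative to let-7d-5p alone and -1.39 relative to miR-151a-5p alone.

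Genes of innate immunity were higher on the whole. Of 290 measured members 207 were higher (50.3% of all genes were), 41 were at least 1.5-fold higher (5.07% of all genes were) and 5 at least 1.5-fold lower (4.7% of all genes were), with a median of 0.19. The antiviral effectors that interferon induces had 52 of 55 higher, 10 at least 1.5-fold higher and a median of 0.31. IFIT2, which binds foreign RNA, was at 10.02 with miR-27b-3p, 10.01 with let-7d-5p, 9.69 with miR-151a-5p and 8.89 with the control mimic. IFIT1, of the same family, was at 12.72 with miR-27b-3p, 12.71 with let-7d-5p, 12.30 with miR-151a-5p and 11.78 with the control mimic. MX1, a dynamin-like GTPase that blocks viruses, was at 14.88 with miR-27b-3p, 15.05 with let-7d-5p, 14.82 with miR-151a-5p and 14.21 with the control mimic. All 3 genes were lowest on the control array. For IFIT2 and MX1 the 3 mimic arrays lay close together, whereas for IFIT1 the miR-151a-5p array lay about midway between the control array and the other mimics. Over the list the control array was the lowest of the 4 for 45 of 55 genes (22.7% of all genes), and the miR-27b-3p array was the highest of the 4 for 12 of 55 (27.6% of all genes). The list's median was 0.31 with miR-27b-3p, 0.40 with let-7d-5p and 0.31 with miR-151a-5p, with the control array shared by all 3, and relative to the average of both other mimics the miR-27b-3p median was 0.

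The cytosolic nucleic acid sensing list had 11 of 15 genes higher (50.3% of all genes were). Its median was 0.08, beside 0.01 over all genes, with a few members well above it. RIGI, the sensor of double-stranded RNA ends, was at 12.74 with miR-27b-3p, 12.70 with let-7d-5p, 12.43 with miR-151a-5p and 11.77 with the control mimic, and IFIH1, the MDA5 sensor of long double-stranded RNA, was at 12.76 with miR-27b-3p, 12.85 with let-7d-5p, 12.66 with miR-151a-5p and 12.13 with the control mimic. TLR3, the endosomal receptor of double-stranded RNA, was at 7.28 with miR-27b-3p and 7.0 with the control mimic, a difference of 0.28. Guanylate-binding proteins and other interferon-gamma genes had 20 of 26 higher (50.3% of all genes were) and a median of 0.17. CIITA, the switch of MHC class II genes, had the highest difference of the list, 1.25, but its mean was under the floor, at 5.25 with miR-27b-3p and 4.0 with the control mimic. Highest among those above the floor was GBP5, an inflammasome cofactor, at 9.30 with miR-27b-3p, 9.14 with let-7d-5p, 8.73 with miR-151a-5p and 8.34 with the control mimic.

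The receptors of single-stranded RNA differed from this pattern. TLR7, an endosomal receptor of single-stranded RNA, was at 10.31 with miR-27b-3p, 8.80 with let-7d-5p, 9.01 with miR-151a-5p and 8.99 with the control mimic. TLR8, its neighbour on the X chromosome with a like ligand, was at 7.61 with miR-27b-3p, 6.86 with let-7d-5p, 5.57 with miR-151a-5p and 6.46 with the control mimic. Both were highest with miR-27b-3p by more than 1.5-fold over each other array. TLR5, the flagellin receptor, differed from the control by 0.81 with miR-27b-3p, 0.22 with let-7d-5p and 0.54 with miR-151a-5p. TIRAP, an adaptor of the surface receptors, differed by -0.65 with miR-27b-3p, -0.60 with let-7d-5p and -0.45 with miR-151a-5p. CD180, a TLR4-like inhibitor, differed by -0.58 with miR-27b-3p, -0.49 with let-7d-5p and -0.42 with miR-151a-5p. Over the 23 measured Toll-like receptors and adaptors 14 were higher (50.3% of all genes were) and 9 lower, with a median of 0.11. NCF1, the p47phox subunit of the phagocyte oxidase, was at 12.98 with miR-27b-3p, 11.75 with let-7d-5p, 11.58 with miR-151a-5p and 11.79 with the control mimic, and since its locus has near-identical pseudogene copies the probe set may read these too.

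Most CXC chemokines were higher. Of 17 CXC chemokines 14 were higher (50.3% of all genes were). Their median was 0.24 with miR-27b-3p, 0.35 with let-7d-5p and 0.18 with miR-151a-5p. Of 21 CC chemokines 11 were higher and 10 lower, near the share over all genes. Their median was 0.19 with miR-27b-3p, -0.11 with let-7d-5p and 0.19 with miR-151a-5p. CXCL8, which draws neutrophils, was at 14.52 with miR-27b-3p, 14.15 with let-7d-5p, 14.38 with miR-151a-5p and 13.61 with the control mimic. CXCL11, another ligand of the CXCL10 receptor, was at 8.54 with miR-27b-3p, 8.51 with let-7d-5p, 8.84 with miR-151a-5p and 8.04 with the control mimic. CCL3, a chemokine that activated macrophages secrete, was at 15.80 with miR-27b-3p, 14.76 with let-7d-5p, 15.46 with miR-151a-5p and 15.03 with the control mimic; its near copy CCL3L3 gave 14.57 with miR-27b-3p and 13.72 with the control mimic, and the probe sets may not tell them apart. The monocyte chemoattractants CCL2 and CCL8 differed by 0.28 and 0.26, CCL2 at 7.33 with miR-27b-3p, 8.50 with let-7d-5p, 7.90 with miR-151a-5p and 7.05 with the control mimic. In the TNF superfamily 15 of 28 were higher (50.3% of all genes were), with a median of 0.015. TNFSF13B, the B cell factor BAFF, was at 10.35 with miR-27b-3p, 10.58 with let-7d-5p, 10.07 with miR-151a-5p and 9.26 with the control mimic. TNFRSF21, death receptor 6, was at 10.67 with miR-27b-3p, 11.54 with let-7d-5p, 11.33 with miR-151a-5p and 11.55 with the control mimic. IL12RB2, a chain of the interleukin-12 receptor, differed by 0.18.

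The promoters of 9594 above-floor genes were found in RefSeq, as 250 bases before to 50 after the start of transcription, and were searched on both strands for 11 motifs, with matches counted whether or not they overlapped another motif. The interferon-stimulated response element, searched as GAAANNGAAA, was in 3.65% of all 27305 promoters. The 283 above-floor genes with it had a median difference of 0.05 with miR-27b-3p, with 7.07% at least 1.5-fold higher and 2.47% lower, beside 3.15% and 4.49% of all above-floor genes with a promoter. The E2F motif, searched with the letters TTTGGCG and with the variants TTTCCCG and also TTTCGCG, was in 7.28% of all promoters, and its 1085 above-floor genes had a median of -0.02, with 2.58% at least 1.5-fold higher and 5.07% lower. The medians of the other 9 classes lay between -0.03 and 0.05. They were the NF-kB motif, GGGANNNNCC, in 25.1% of all promoters, the CCAAT box, CCAAT, in 35.7%, the cell cycle homology region CHR, TTTGAA, in 15.4%, the TATA box, TATAAA, in 11.95%, and the E-box, CACGTG, in 7.43%. Rarer were the AP-1 motif, TGACTCA or its variant TGAGTCA, in 4.92%, the cyclic AMP response element, TGACGTC, in 3.63%, the sterol element, TCACNCCAC, in 1.15%, and the ATF4 element, TGATGNAAT, in 1.02%. To show what was matched, 30 bases around the motif are given, in the direction of transcription and with 1 match in each window in capitals, for genes of the response element class and of the E2F class that are described above or are among the largest differences of their class:
CXCL10: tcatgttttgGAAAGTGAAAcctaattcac
TNFSF10: gaggagcttcTTTCAGTTTCcctcctttcc
IFIT1: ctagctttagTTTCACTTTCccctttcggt
GINS1: ctttgttcggCGCCAAAgcgcggagcggag
CDCA5: ttccgcttccTTTCCCGcagggcgggtaat
DTL: gtgacgtcagTTTGGCGcggagtttggcgg
These windows lie at chr4:76023699-76023728 on the minus strand for CXCL10, chr3:172523598-172523627 on the minus strand for TNFSF10, chr10:89392497-89392526 on the plus strand for IFIT1, chr20:25407669-25407698 on the plus strand for GINS1, chr11:65084066-65084095 on the minus strand for CDCA5 and chr1:212035730-212035759 on the plus strand for DTL, in GRCh38.p14. DTL, a substrate adaptor that degrades licensing factors in S phase, differed by -1.01, and CDCA5, sororin, which locks cohesin on chromatin, by -1.05. A match is a description of the letters and was not tested as a binding site.

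**Figure D4:**
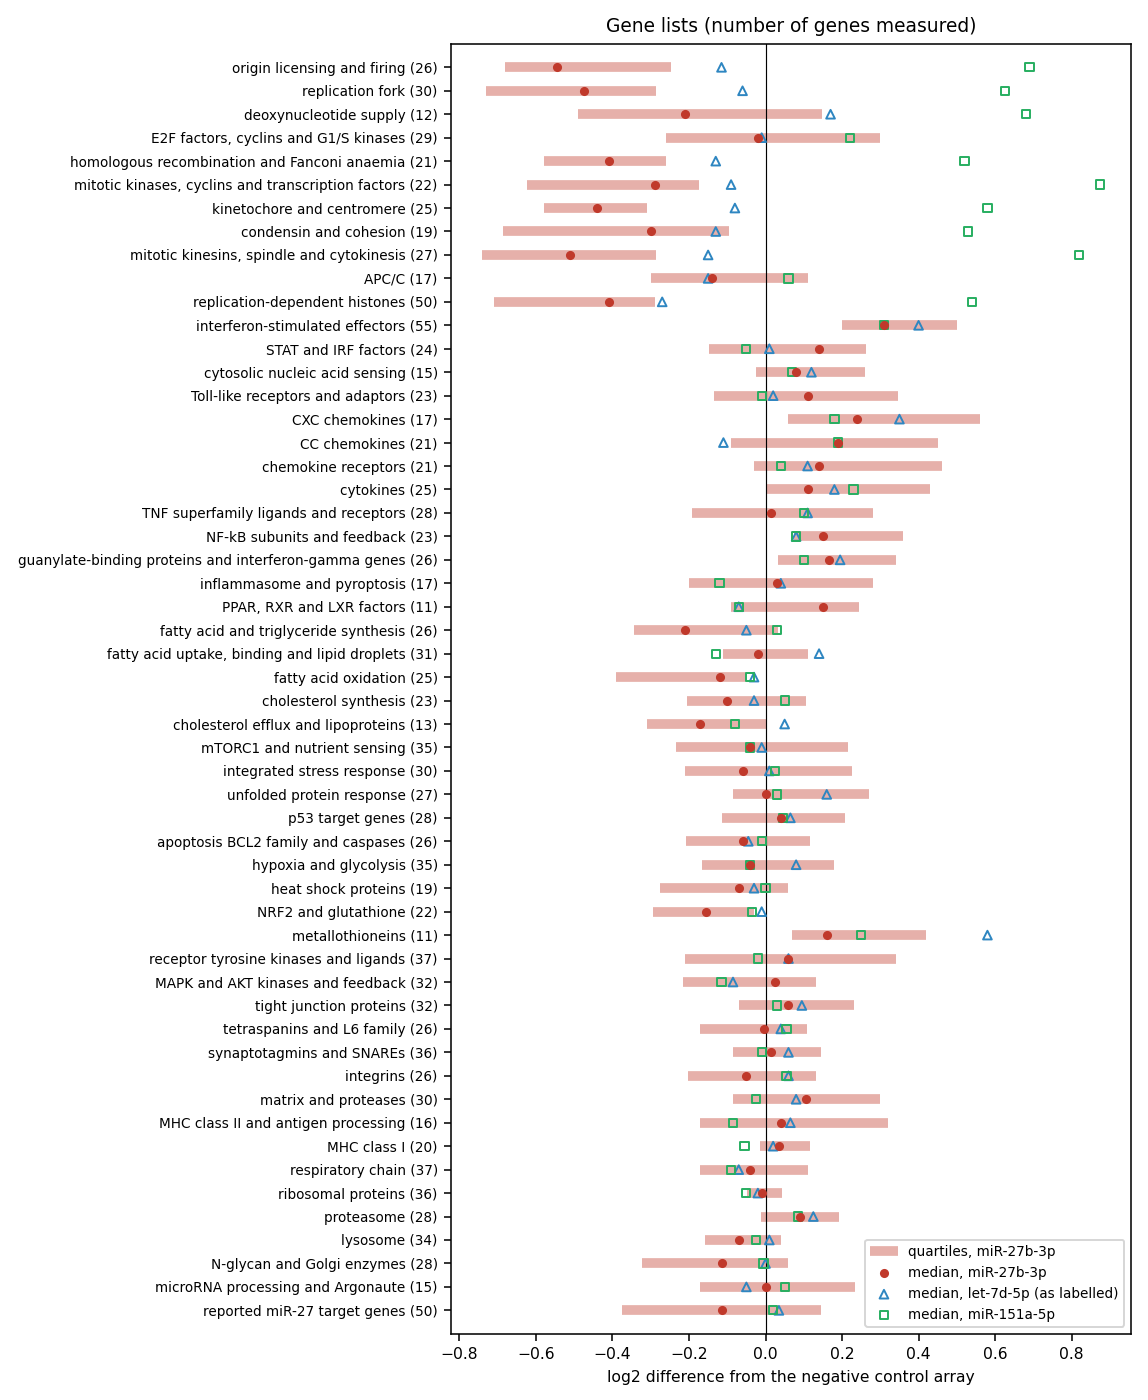
Median log2 difference from the control array (horizontal axis) of 54 gene lists, with the quartiles for miR-27b-3p as bars and the number of measured genes in brackets. With miR-27b-3p most cell cycle lists lie to the left of 0 and the interferon-stimulated effectors at 0.31; the miR-151a-5p medians of the same cell cycle lists lie to the right of 0.

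Earlier work in other cells has named a set of genes as targets of miR-27, and 50 of the 59 listed were measured. With miR-27b-3p 29 of them were lower, 20 higher and 1 equal, with a median of -0.12. At least 1.5-fold lower were 7 of the 50 (4.7% of all genes were), and 4 were at least 1.5-fold higher (5.07% of all genes were). WEE1, given above, was the lowest. CCNG1, cyclin G1, a p53 target, was at 12.25 with miR-27b-3p, 12.93 with let-7d-5p, 12.93 with miR-151a-5p and 13.18 with the control mimic. GPAM, the acyltransferase that starts triglyceride synthesis in mitochondria, was at 5.56 with miR-27b-3p, 6.62 with let-7d-5p, 6.50 with miR-151a-5p and 6.47 with the control mimic. CYP1B1, a cytochrome P450 of xenobiotic and oestrogen metabolism, was at 11.35 with miR-27b-3p, 12.16 with let-7d-5p, 12.12 with miR-151a-5p and 12.15 with the control mimic. In these 4 genes the miR-27b-3p array was at least 1.5-fold under each other array, which held for 1.08% of all genes above the floor and for 4 of the 42 listed genes above it. ZBTB10, a repressor of Sp factors, was at 7.24 with miR-27b-3p, 8.02 with let-7d-5p, 7.66 with miR-151a-5p and 7.95 with the control mimic, and PPARG, the master regulator of adipocytes that lipid-laden macrophages also use, was at 11.38 with miR-27b-3p, 11.99 with let-7d-5p, 11.75 with miR-151a-5p and 11.97 with the control mimic. The remaining lower gene, CYP3A4, was under the floor on both arrays.

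Several listed targets were higher. MET and TP53INP1, given above, led, followed by FOXO1, a transcription factor of the insulin pathway. FOXO1 was at 6.14 with miR-27b-3p, 5.27 with let-7d-5p, 6.18 with miR-151a-5p and 5.26 with the control mimic. It was under the floor with let-7d-5p and with the control mimic. MMP13, a collagenase, was at 8.70 with miR-27b-3p, 8.68 with let-7d-5p, 8.11 with miR-151a-5p and 7.91 with the control mimic. Others were close to the control, among them NOTCH1 at -0.07, CALR at 0.06 and RUNX1 at 0.02. The list was put together with earlier results of these data known and was not filtered for seed sites, since 3′ untranslated sequences were not used here. The median of its above-floor members was -0.17, and over the whole list the miR-27b-3p array was the lowest of the 4 for 18 of 50 genes (25.4% of all genes) and the highest for 10 (27.6% of all genes).

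**Figure D5:**
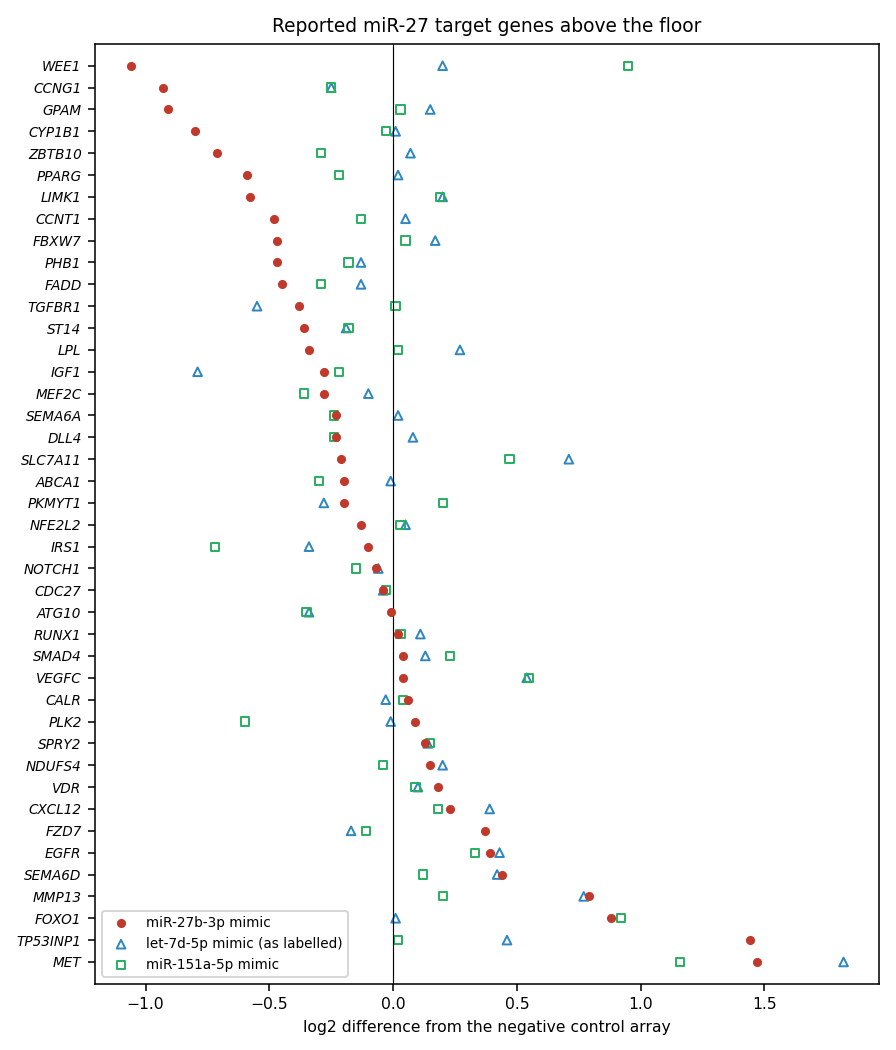
Log2 difference from the control array (horizontal axis) for each of 42 reported miR-27 target genes above the floor, with each of the 3 mimics. WEE1, CCNG1, GPAM and CYP1B1 lie left of their other points with miR-27b-3p, while MET is to the right of 0 with every mimic.

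Lipid metabolism, where the miR-27 family is best known, had small differences with a lean to lower values. Of 129 genes 82 were lower (48.4% of all genes were) and 45 higher (50.3% of all genes were), with a median of -0.09. At least 1.5-fold, 8 were lower (4.7% of all genes were) and 2 higher (5.07% of all genes were). Fatty acid and triglyceride synthesis had 19 of 26 lower and a median of -0.21, with GPAM at -0.91, ACLY, the source of cytosolic acetyl-CoA, at 13.50 with miR-27b-3p and 13.96 with the control mimic, and FASN, fatty acid synthase, at 11.53 with miR-27b-3p and 11.96 with the control mimic. Fatty acid oxidation had 20 of 25 lower and a median of -0.12. PDK4, which spares glucose during fat burning, was at 6.11 with miR-27b-3p, 7.19 with let-7d-5p, 6.58 with miR-151a-5p and 7.06 with the control mimic, and SLC25A20, the mitochondrial carnitine carrier, was at 9.02 with miR-27b-3p, 9.33 with let-7d-5p, 9.34 with miR-151a-5p and 9.86 with the control mimic. ACADL, a long-chain acyl-CoA dehydrogenase, stood against them with a difference of 0.87. Among the uptake genes SLC27A4, a fatty acid transporter, was at 8.61 with miR-27b-3p, 9.49 with let-7d-5p, 9.37 with miR-151a-5p and 9.40 with the control mimic, while CD36, the scavenger receptor that takes up fatty acids, differed by -0.16. Cholesterol synthesis had a median of -0.10 with no lean that all its members shared, from MVD at -0.62 to INSIG1, the brake on SREBP, at 0.52. ABCA1, the cholesterol exporter, differed by -0.20.

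Stress and nutrient genes were divided gene by gene. The mTORC1 list had 15 genes higher and 20 lower of 35, with 5 at least 1.5-fold higher (5.07% of all genes were) and 4 at least 1.5-fold lower (4.7% of all genes were). Beside DDIT4, the sestrins SESN3 and SESN1, which restrain mTORC1 under amino acid shortage, differed by 0.93 and 0.71, SESN3 at 7.16 with miR-27b-3p, 7.02 with let-7d-5p, 6.27 with miR-151a-5p and 6.23 with the control mimic. RICTOR, of mTORC2, differed by 0.60. On the lower side stood DEPDC5, of the GATOR1 inhibitor, at -0.87, EIF4EBP1, a translation repressor that mTORC1 switches off, at -0.69, and RRAGD, a Rag GTPase, at -0.68. NRF2 and glutathione genes had 19 of 22 lower (48.4% of all genes were) and a median of -0.16. HMOX1, haem oxygenase 1, was at 11.40 with miR-27b-3p, 12.35 with let-7d-5p, 11.47 with miR-151a-5p and 12.07 with the control mimic. GCLC, which starts glutathione synthesis, was at 13.72 with miR-27b-3p and 13.14 with the control mimic. The p53 targets had 16 of 28 higher (50.3% of all genes were) and 12 lower, with AEN, a nuclease, at -0.76 beside the genes already given.

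Genes of the cell surface and of vesicle traffic held several of the largest single differences without a shift of their lists, whose medians lay between -0.05 and 0.11. STX12, an endosomal syntaxin, was at 13.29 with miR-27b-3p, 13.23 with let-7d-5p, 12.89 with miR-151a-5p and 12.25 with the control mimic. GOLM1, a Golgi membrane protein, was at 10.12 with miR-27b-3p, 11.41 with let-7d-5p, 11.29 with miR-151a-5p and 11.17 with the control mimic. GPR82, an orphan receptor, was at 7.37 with miR-27b-3p, 5.91 with let-7d-5p, 6.15 with miR-151a-5p and 6.30 with the control mimic. For GOLM1 and GPR82 the miR-27b-3p array was the one that stood apart, and for STX12 the control array did. Among growth factor receptors and ligands FGFR4 differed by 0.76 and EREG, epiregulin, by 0.79. SPRED1, an inhibitor of RAS signalling, differed by 0.83 and DUSP5, an ERK phosphatase, by -0.72. Of the integrins ITGA11, a collagen receptor chain, differed by -0.83 and ITGA6, a laminin receptor chain, by 0.69. The N-glycan and Golgi enzyme list had a median of -0.12, with ENTPD6, a Golgi nucleotide phosphatase, at 10.42 with miR-27b-3p, 11.17 with let-7d-5p, 10.91 with miR-151a-5p and 11.43 with the control mimic. Housekeeping lists stayed near 0, with medians of -0.01 for ribosomal proteins, -0.04 for the respiratory chain and 0.09 for the proteasome.

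Genes for which the miR-27b-3p array stood apart from all 3 others were more often below than above. At least 1.5-fold, 125 genes above the floor were below each other array (1.08%) and 65 were above each other array (0.559%). At least 2-fold, 5 were above, namely SYT11, OR9K2, TLR7, NCF1 and GPR82, and 5 were below, namely H3C8, CENPM, MYBL2, WEE1 and GOLM1, each 0.043% of the genes above the floor. The floor was applied to the mean of the miR-27b-3p and control arrays, so a gene could pass it by the miR-27b-3p array alone. OR9K2, an olfactory receptor gene, did so, at 4.67 with the control mimic, 5.16 with let-7d-5p and 4.77 with miR-151a-5p. At 1.5-fold so did LMOD3, TTLL2, DNER, COL12A1, TNNI2 and TNFRSF8. Of the 125 below, 33 belonged to the 263 cell cycle genes above the floor, and 4 were the reported targets WEE1, CCNG1, GPAM and CYP1B1. Of the 65 above, 3 belonged to the 235 innate immunity genes above the floor, TLR7, TLR8 and CCL25. Of the 263 cell cycle genes 0 were among them. Beside 0.559% of all genes above the floor, these counts are too small to show a lean of either set. Counted in the same way over genes with a mean above the floor on all 4 arrays, the numbers above and below each other array were 60 and 133 for miR-27b-3p, 27 and 33 for let-7d-5p, 202 and 63 for miR-151a-5p, and 27 and 50 for the control.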

How the data were processed

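Total RNA of 4 cultures, 1 for each mimic, was hybridised to Affymetrix Clariom S arrays. The deposited values are log2 signals that the authors made with RMA in Transcriptome Analysis Console 4.0 (normalised across arrays, summarised per probe set), and they were used without further scaling. The build of the array design was not given in these sources. The labels name Trizol and the methods RNeasy for RNA extraction. Of 21448 probe sets 17709 carried 1 gene symbol in the platform annotation, 0 carried several and 3739 none, and all 17687 gene identifiers matched RefSeq (GRCh38.p14). Where a gene had more than 1 probe set (20 genes), the probe set of highest mean signal stood for it. Each mimic has 1 array, so no test was run and precision is limited by that number. The floor was the 95th percentile of olfactory receptor signals over the 4 arrays. Named genes were the 20 highest and 20 lowest above the floor, those at least 3-fold apart, those at least 2-fold beyond each other array, up to 6 members of each list with the largest difference, further members by role, the reported miR-27 targets and 9 genes of interest to the study. The members and the 60 lists (1460 of 1623 genes measured) were chosen with earlier results of these data known. Promoters matched 14250 genes, and 1 promoter was taken for each. The code that makes the counts was checked on simulated arrays, which does not test the counts in these data. Alternatives were a second quantile normalization, removal of a loess trend (statsmodels 0.14.6), a pseudocount of 16 on the linear signal, a floor at the 90th percentile, no floor, the mean of probe sets, and the mean of the other mimic arrays in place of the control. Python 3.11.15, numpy 2.4.6 and pandas 2.3.3 were used.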

Additional observations from a re-analysis of the deposited data

Results flagged for a closer look

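For 9 cell cycle lists the median difference from the shared control array was below 0 with miR-27b-3p and above 0 with miR-151a-5p, each by at least 0.2. The difference between the mimics was not tested, since each has 1 array. The medians were -0.55 with miR-27b-3p and 0.69 with miR-151a-5p for origin licensing and firing, -0.48 with miR-27b-3p and 0.63 with miR-151a-5p for the replication fork, and -0.21 with miR-27b-3p and 0.68 with miR-151a-5p for deoxynucleotide supply. For homologous recombination and Fanconi anaemia they were -0.41 with miR-27b-3p and 0.52 with miR-151a-5p, for mitotic kinases, cyclins and transcription factors -0.29 with miR-27b-3p and 0.88 with miR-151a-5p, and for kinetochore and centromere -0.44 with miR-27b-3p and 0.58 with miR-151a-5p. Condensin and cohesion had -0.30 with miR-27b-3p and 0.53 with miR-151a-5p, mitotic kinesins, spindle and cytokinesis -0.51 with miR-27b-3p and 0.82 with miR-151a-5p, and replication-dependent histones -0.41 with miR-27b-3p and 0.54 with miR-151a-5p.

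Probe sets with no gene name entered no comparison. Of 2127 of them above the floor, 16 were at least 2-fold higher with miR-27b-3p than with the control mimic (0.752%) and 13 at least 2-fold lower (0.611%).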

How the results depend on the processing

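No paired analysis was possible because each group has 1 array. A second quantile normalization, removal of a loess trend and the mean of probe sets kept all 6 counts within 1.5 times, and all 12 list medians of at least 0.2 and all 57 named genes of at least 2-fold kept their sign. A pseudocount of 16 left 22 genes 2-fold higher and 28 lower, 3 genes 3-fold higher and 0 lower, and 22 higher and 28 lower above the floor at 2-fold. Without a floor the 2-fold counts were 107 higher and 89 lower. Relative to the average of both other mimics 44 genes were 2-fold higher and 127 lower, 1 gene was 3-fold higher and 7 were 3-fold lower, and above the floor 25 were 2-fold higher and 100 lower. There the origin licensing median was -0.82, the spindle median -0.78 and the interferon-stimulated effector median 0, and IRF3 (0.015), MET (-0.02) and PTPMT1 (-0.11) changed sign. The spindle median was -0.33 relative to let-7d-5p alone and -1.1 relative to miR-151a-5p alone. Of the genes above the floor that were 2-fold apart from the control, 10 of 46 higher and 20 of 50 lower were also 2-fold apart from that average. The causes were not tested. With 1 array a group no difference has a replicate check, and genes near the floor are the least certain.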
